A study of Mus musculus with 22 samples.

Results

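The genes described here are 17 fibroblast genes that were low in embryonic stem cells yet still high at the end of both reprogramming time courses. They were chosen by measured values in the deposited table of the whole series, which scores 12897 genes. A member had a score of at least 1000 in mouse embryonic fibroblasts (MEF), a mouse embryonic stem cell (mESC) score of at most 1/16 of that, and scores of at least 1/2 of the MEF score in both OvSvK day 4 and OSK day 7. Symbols of several matrix, integrin, chemokine, keratin and other named families were left out, which removed Cdh2, Col4a2 and Lama4. The end-point scores are therefore a description with no test. Of 232 genes past the MEF and mESC thresholds, 184 were under 1/2 of MEF at both end points, 15 passed at OvSvK day 4 only and 16 passed at OSK day 7 only.

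Somatic cells turned into pluripotent cells must switch off the genes of their tissue of origin as well as switch on those of the pluripotent state. In fibroblasts the first group includes genes for the cell surface, the cytoskeleton, calcium-dependent membrane binding and mesenchymal transcription. Its loss is usually gradual and differs from gene to gene.

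RNA sequencing was done on passage P2 mouse embryonic fibroblasts that all carry the OG2 transgene, of a strain labelled as a mix of 129SVJ, C57B6 and CBA. Days are counted from the end of a transfection of 2 days. OvSvK cells, in which Oct4 and Sox2 are fused to the viral activation domain vp16, were sampled on days 0, 1, 2, 3 and 4, OSK cells with the unfused factors on days 0, 1, 3, 5 and 7, and GFP controls on days 1, 3, 5 and 7. OSK cultures that lacked bFGF, vitamin C or the GSK3 inhibitors (CHIR-99021 and LiCl) were sampled on days 3 and 7, so all of them also carry the factors. The series adds 1 mESC and 1 MEF sample, which enter only through the scores. The labels do not say how the factors were delivered, or give the makeup of the full medium. Every arm and day is 1 library, so n = 1 at each point and no value has a replicate error.

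Total counts were 7872277 to 20720718 per library, and every member had at least 303 counts in every library and passed the filter on low counts in every fit. Levels are counts scaled by library total and TMM factor (CPM), except that genes are compared with each other in TPM, which corrects for transcript length. OSK day 0 stood apart: its TMM factor was 0.665 against at least 0.854 elsewhere, and its median rank correlation with the other libraries was 0.626 against at least 0.73. Relative to each gene's median over the libraries, its genes of low transcript GC were at -1.71 on the log2 scale and those of high GC at 1.23 (medians of the 20% of genes at either end). GFP day 1 was next, with -1.02 and 0.42. Of the counts given to the ribosomal gene Rpsa and its near-identical copy Rpsa-ps10, the copy took 3.32 to 7.78% in GFP and in OSK days 1 to 7 but 0.124 to 0.476% in the other libraries. These are called 2 library sets here, and the labels do not say what sets them apart. All 7 fibroblast markers (Thy1, Pdgfra, Pdgfrb, Dcn, Lum, Twist2 and Fap) were detected in every library, and their summed level was 869 to 2870 CPM in GFP, 145 to 881 in OSK and 227 to 817 in OvSvK. Among markers of other cell types, the endothelial sum was 14.4 to 16.3 CPM in GFP and 31.6 to 203 in OSK. Its markers did not move together. Tek was 0.51 to 1.32 CPM in GFP and 25.3 to 190 in OSK, but Cdh5 was 2.96 to 6.5 in GFP and 0.0726 to 0.66 in OSK. Pecam1, Kdr, Tie1 and Emcn overlapped between GFP and OSK. The macrophage sum was 76.1 to 134 CPM in GFP and 51.0 to 288 in OSK. The neural sum was 3.61 to 13.6 CPM in GFP, 14.8 to 138 in OSK and 146 to 506 in OvSvK, led by Tubb3. The neural markers also differed between OSK and OvSvK. Tubb3 reached 137 CPM in OSK and 505 in OvSvK, and Gfap 4.87 and 12.9. Sox1 instead reached 33.6 in OSK and 10.2 in OvSvK, and Pax6 13.4 and 0.743. The part of these other cell types in the results was not tested, and in bulk RNA fewer cells of a type and less RNA per cell cannot be told apart.

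The 17 members are Anxa1, Anxa2, Capn2 and Camk2d, which act in calcium-dependent membrane binding, proteolysis and signalling, the surface and membrane proteins Cd109, Nrp2, App, Tm4sf1, Cmtm3, Tmem176b and Ptrf, the cytoskeletal and transport proteins Dpysl3, Gas7 and Kif1a, the secretory-pathway enzyme Cpe, and the transcription factors Elk3 and Foxp1. All 17 are annotated as protein-coding. By mean TPM over the 20 libraries, Anxa2 (3424) and Anxa1 (1021) were the most abundant, followed by App (664.6), Dpysl3 (662.9), Cpe (587.0) and Ptrf (586.4). Foxp1 was the least abundant, at 75.51 TPM.

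**Figure D1:**
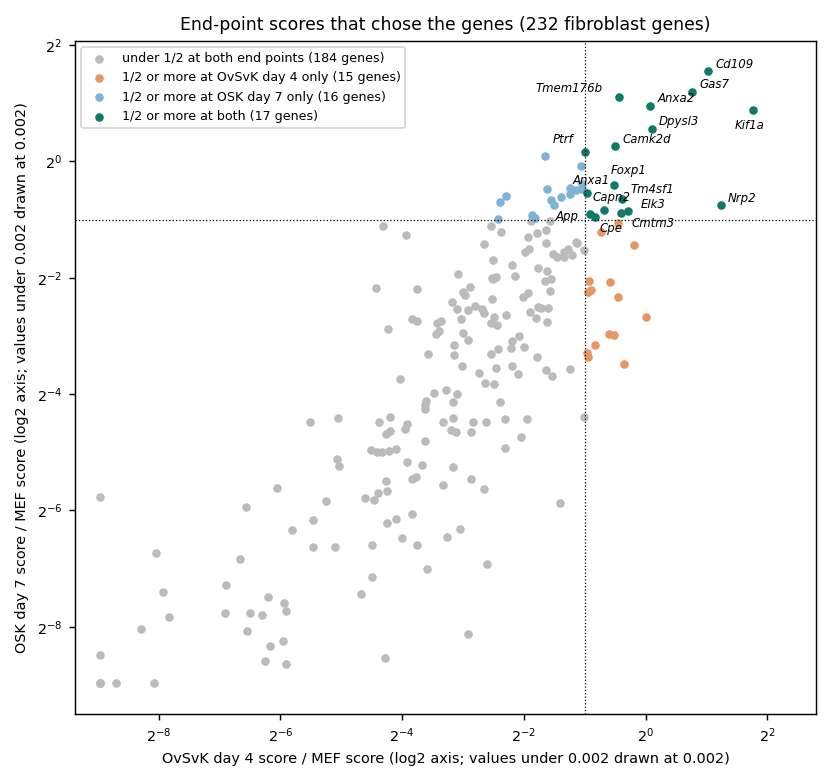
Scores at OvSvK day 4 (x axis) and OSK day 7 (y axis), each divided by the MEF score, for the 232 fibroblast genes on log2 axes. Dotted lines mark 1/2 of MEF, and the 17 members are the genes at or above both lines, with Kif1a farthest right at 3.41 and Cd109 highest at 2.92.

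The end-point scores of the members ranged from 0.504 to 3.41 times MEF at OvSvK day 4, with a median of 0.755, and from 0.518 to 2.92 times MEF at OSK day 7, with a median of 0.757. Most members were thus below their MEF score, and several lay close to the limits. Ptrf at 0.504 was the nearest inside at OvSvK day 4 and Slc25a24 at 0.486 the nearest outside. App at 0.518 was the nearest inside at OSK day 7 and S100a6 at 0.482 the nearest outside. For MEF level these were Tmem176b at 1006 and Twist1 at 920, and for the mESC ratio Cd109 at 0.0589 and Tgfbr2 at 0.0627.

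"Not yet silenced" describes some members better than others. Foxp1, Gas7 and Nrp2 were already under 1/2 of MEF in OSK day 0, at 0.207, 0.354 and 0.151 times the MEF score, and Foxp1 and Nrp2 were also under it in OvSvK day 0, at 0.451 and 0.395. In these courses the end-point score was above the day 0 score. For Gas7 the value under 1/2 rests on OSK day 0 alone, the library that stood apart, as OvSvK day 0 was at 0.527 times MEF. The MEF sample was also processed with another RSEM version and genome build. Whether its score is the starting level of these cells was not tested. GFP day 7 was at 1/2 of MEF or more for 16 of the 17, the exception being Foxp1 at 0.31. Set against the GFP library of the same day instead of MEF, OSK day 7 was under 1/2 in CPM for 6 members, namely Anxa1, App, Capn2, Cmtm3, Cpe and Nrp2, with Cpe lowest at 0.152 times GFP. It was above GFP for 9 members, from 1.05 times for Tm4sf1 to 2.44 times for Cd109, and between both limits for Elk3 and Tmem176b. The group chosen as still on against MEF thus included 6 genes that were more than 2-fold below GFP in this pair of libraries. OSK day 7 also served the rule, and the share of all genes was not counted, so these counts are only a description.

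Promoter windows were looked up to see whether the members share a motif. RefSeq promoters (GRCm38.p6, 250 bases before to 50 after the start) were matched by Ensembl identifier, or else by symbol, for 13 of the 17 members. Cd109, Cpe, Dpysl3 and Gas7 had no entry. Where a gene had several RefSeq starts, the nearest to the start given by the series was used. For Foxp1 and Tm4sf1 the RefSeq start lay 85648 and 7099 bases from the start that the series table gives. For Camk2d, Anxa1 and Ptrf the distance was 649, 273 and 270 bases, and for the rest at most 115. Positions are counted from the RefSeq start. The AP-1 motif TGANTCA, searched on both strands, was in 2 of the 13 windows, those of Anxa2 and Capn2, against 4.79% of 10068 promoters of the scored genes. The TATA motif TATAAA, searched on the gene's strand only, was in Anxa1 and Anxa2, against 4.41% of all. The TEAD motif GGAATG, on both strands, was in Anxa1, Foxp1, Ptrf and Tmem176b, against 12% of all. The GC box GGGCGG, on both strands, was in 8 of 13, against 65.7%. The octamer ATGCAAAT, the Sox motif CATTGT and the CArG box were in none of the 13, against 1.35%, 6.66% and 1.28% of all promoters. A ratio of observed to expected CpG above 0.6 was found in 7 of the 13, against 71.7% of all. Among the genes under 1/2 of MEF at both end points, 128 promoters were matched, and 53.1% of them had such a ratio. Of those 128, 11.7% held the TATA motif, 18.0% the TEAD motif, 3.91% the AP-1 motif and 64.1% the GC box. No motif other than the common GC box was in more than 4 of the 13 windows.

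The 3 windows that hold an AP-1 or TATA match are shown 5′ to 3′ on the gene's strand, 250 bases up to the start, since Anxa2, Anxa1 and Capn2 are calcium-dependent proteins whose time courses are set side by side next. Capitals mark AP-1 or TATA letters. Anxa2 (chr9:69453433-69453682, plus strand) has TGAGTCA from base -95 to -89 and TATAAA from -17 to -12. Capn2 (chr1:182517611-182517860, minus strand) has TGACTCA from -183 to -177. Anxa1 (chr19:20390672-20390921, minus strand) has TATAAA from -32 to -27.
Anxa2: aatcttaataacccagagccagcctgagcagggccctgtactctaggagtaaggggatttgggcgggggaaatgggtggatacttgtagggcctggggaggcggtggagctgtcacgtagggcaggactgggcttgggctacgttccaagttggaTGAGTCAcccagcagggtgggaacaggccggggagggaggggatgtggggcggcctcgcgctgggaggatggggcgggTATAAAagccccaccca
Capn2: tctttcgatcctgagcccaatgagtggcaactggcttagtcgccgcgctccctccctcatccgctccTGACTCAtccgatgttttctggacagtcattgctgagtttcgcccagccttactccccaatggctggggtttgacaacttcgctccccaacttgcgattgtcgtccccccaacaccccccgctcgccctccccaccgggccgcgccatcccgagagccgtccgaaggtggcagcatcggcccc
Anxa1: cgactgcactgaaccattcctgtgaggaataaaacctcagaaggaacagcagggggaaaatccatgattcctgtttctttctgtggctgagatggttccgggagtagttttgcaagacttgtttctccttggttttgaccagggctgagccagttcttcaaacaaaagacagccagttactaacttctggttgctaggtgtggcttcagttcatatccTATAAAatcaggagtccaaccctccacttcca

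Anxa2 and Anxa1 are annexins, which bind phospholipids when calcium is present, and Anxa2 forms a complex with S100a10 at the plasma membrane. Anxa2 read 6075, 4630, 2351, 2134 and 1358 CPM in OSK on days 0, 1, 3, 5 and 7. The GFP libraries read 2074, 1144, 1068 and 822.9 on days 1, 3, 5 and 7, below OSK on each of the 4 days. In OvSvK it read 2535, 2518, 1893, 1230 and 762.4 on days 0 to 4. Anxa2 was thus above GFP in OSK on every shared day, and each of the 3 arms ended at its lowest value. Anxa1 instead was highest on day 1 in OvSvK: 690.4, 2160, 1541, 613.7 and 247.3 CPM on days 0 to 4. OSK was also highest on day 1, with 322.2, 1075, 782.4, 775.4 and 330.5 CPM on days 0, 1, 3, 5 and 7. GFP went from 233.3 on day 1 to 674.6, 716.1 and 797.7 on days 3, 5 and 7, and ended above every end-point library of the factor arms.

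Capn2, the catalytic subunit of the calcium-activated protease m-calpain, was lower in OSK than in GFP on every shared day. It read 747.0, 747.3, 479.1, 409.7 and 236.2 CPM in OSK and 899.6, 627.4, 528.3 and 517.2 in GFP. OvSvK went from 838.3 on day 0 through 519.6, 446.0 and 355.1 to 245.8 on day 4. Camk2d, the delta subunit of calcium/calmodulin-dependent kinase II, had the opposite order, with 268.8, 393.0, 351.9 and 294.0 CPM in OSK on days 1, 3, 5 and 7 against 126.4, 206.2, 188.3 and 160.6 in GFP. Its OSK day 0 value was 155.1, and OvSvK went from 285.5 through 253.5, 215.2 and 197.6 to 148.8. On day 3 Camk2d was about as high in OvSvK as in GFP and higher in OSK.

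Among the surface proteins, Cd109, a GPI-anchored co-receptor that dampens TGF-beta signalling, did not overlap between the factor arms and GFP. Its levels were 361.9, 796.9, 1381, 1269 and 796.7 CPM in OSK and 869.4, 1001, 1064, 864.9 and 596.3 in OvSvK. GFP read 140.1, 213.0, 232.5 and 326.4 and did not reach the lowest value of either factor arm. In TPM, however, GFP day 7 at 123.4 was above OSK day 0 at 79.05. Tm4sf1, a 4-transmembrane L6 family protein, was far lower late than early in OSK, with 1207 and 975.5 CPM on days 0 and 1 and 193.4, 248.9 and 96.79 on days 3, 5 and 7, and went in OvSvK from 717.3 through 601.0, 401.3 and 199.2 to 100.7. Its GFP values were uneven, at 377.1, 65.89, 235.0 and 91.75 CPM, so that OSK and GFP overlapped. Tm4sf1 also had the widest range of the 17, with its highest library 18.3 times its lowest.

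In CPM, App, the amyloid precursor protein, ended at its highest value in the control and at its lowest in both factor arms. OSK read 863.3, 816.8, 749.6, 674.9 and 516.2 CPM and OvSvK 1078, 1007, 833.5, 687.8 and 502.4. GFP read 706.8, 1242, 1305 and 1568, lower than OSK on day 1 and higher from day 3. Cpe, the carboxypeptidase that trims peptide hormones, showed the same crossing more strongly in OvSvK, with 894.1, 542.1, 437.9, 330.7 and 235.0 CPM against 410.7, 1126, 1299 and 1597 in GFP. OSK stayed between 243.3 and 346.8 CPM from day 0 on. For both genes the GFP day 7 library was the highest of all 20. The OSK order depends on the scale. In TPM, App was lowest in OSK on day 0, at 355.2 against 398.6 on day 7. Cpe was at 216.0 against 284.0 TPM on these days.

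Ptrf, which encodes cavin-1 of the caveolar coat (annotated as Cavin1), was highest in OSK, at 2540, 1536, 1147, 1015 and 884.7 CPM. OvSvK was lowest, at 1148, 513.0, 470.0, 431.1 and 346.6, and GFP lay between on day 1 and day 3 with 1441 and 929.5, then 542.7 and 490.4. Nrp2, a co-receptor for semaphorins and VEGF, had the reverse order of the 2 factor arms, with 85.5, 270.2, 421.7, 432.9 and 416.4 CPM in OvSvK. OSK read 42.62, 137.7, 220.1, 222.9 and 125.2 and GFP 193.8, 214.5, 218.5 and 310.5. OvSvK was the highest arm for Nrp2 and the lowest for Ptrf on days 1 and 3.

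Cmtm3, a MARVEL-domain membrane protein, was flat in GFP at 141.3, 133.3, 140.3 and 130.7 CPM. OSK went from 135.2 through 84.41, 54.84 and 51.19 to 41.21 and OvSvK from 109.2 through 84.06, 74.24 and 68.4 to 59.52, both below GFP on every shared day. Tmem176b, a 4-transmembrane protein, was lowest in OvSvK, at 76.06, 43.97, 50.02, 57.21 and 49.28 CPM. OSK read 161.2, 86.54, 106.7, 142.6 and 147.2 and GFP 103.7, 152.5, 178.3 and 152.6. Every OvSvK library was below every other library for Tmem176b.

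Dpysl3, a collapsin response mediator that binds the cytoskeleton, read 2233, 2167, 1721, 1745 and 1166 CPM in OSK. OvSvK went from 3410 through 1625, 1271 and 1028 to 813.8. GFP stayed between 467.7 and 656.3, below every factor library. Gas7, an F-BAR protein that binds actin, went from 66.65 CPM in OSK day 0 to 152.1, 374.7, 401.7 and 318.6, and in OvSvK from 80.71 through 103.2, 155.5 and 228.1 to 233.1. GFP read 104.3, 201.6, 241.7 and 222.0. Kif1a, a kinesin motor best known from axonal transport, read 381.1, 512.8, 717.3, 524.9 and 229.2 in OSK and 370.5, 236.5, 136.0 and 193.7 in GFP. OvSvK stayed within 358.2 to 531.6, so its end-point level was above that of OSK.

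The transcription factors also differed from each other. Foxp1, a forkhead factor, read 44.65, 110.3, 192.2, 201.5 and 152.7 CPM in OSK, and 101.2, 184.9, 231.0, 192.4 and 135.4 in OvSvK. GFP read 38.6, 82.84, 70.25 and 69.5, lower on every shared day. Elk3, an ETS factor that acts with serum response factor, was 137.3, 165.3, 101.0, 90.13 and 80.43 in OSK. GFP read 209.4, 126.8, 162.4 and 136.6, above OSK on every shared day, while OvSvK, between 116.6 and 214.1, was above GFP on days 1 and 3.

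**Figure D2:**
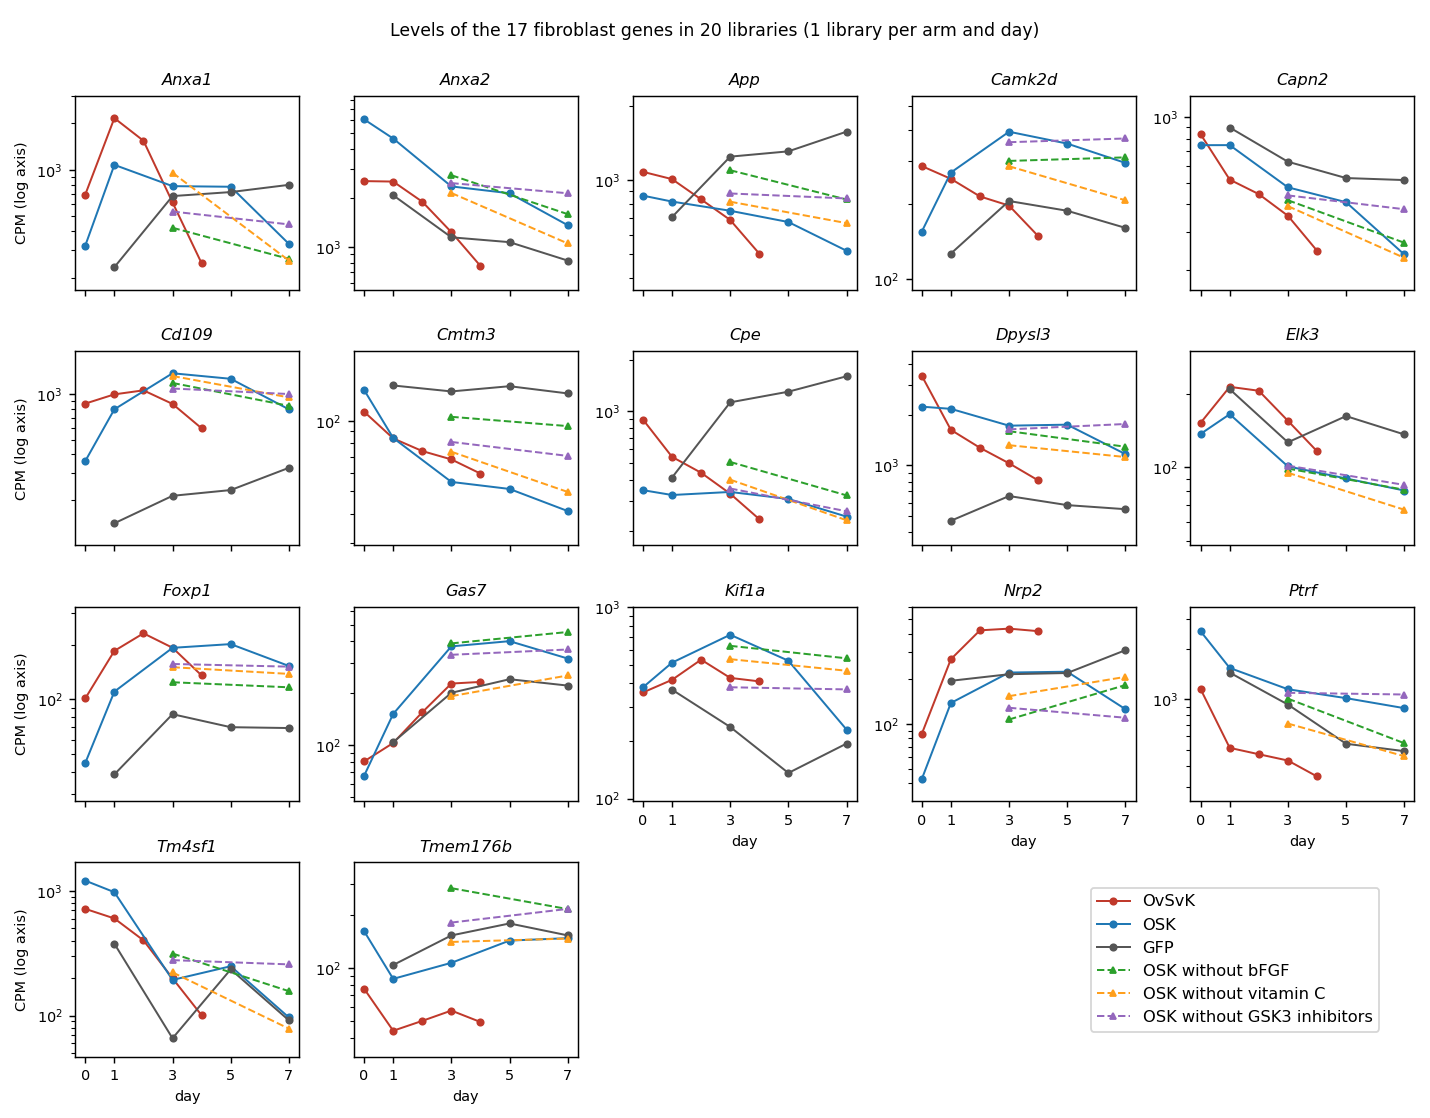
CPM (log axis) of each of the 17 genes by day, with 1 point per library: solid lines are OvSvK, OSK and GFP, dashed lines the 3 omission arms. On this CPM scale, Cd109 and Dpysl3 in GFP lie below every factor library. App and Cpe end, on the same scale, highest in GFP and lowest in OSK and OvSvK. Ptrf and Tmem176b are lowest in OvSvK.

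OSK was then compared with GFP on days 1, 3 and 5, leaving out OSK day 7 because it chose the members. The fit used edgeR's quasi-likelihood test with day as a block, over 6 libraries of 1 library set and 12640 genes, and its error is the day-to-day variation of the difference. At a Benjamini-Hochberg adjusted p under 0.05, 6 of the 17 members were higher in OSK and 1 was lower, where 13.4% of all genes were called higher and 9.64% lower. The members' median difference was 0.735 on the log2 scale and that of all genes 0.033. Of the 184 genes low at both end points, 5 were higher and 82 lower, with a median of -1.63. OSK days 1 to 5 belong to the same time course as the library of the rule. The direction of the members and of the 184 genes is therefore not independent of their choice.

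Cd109 had the largest difference, at 2.56 (SE 0.17, adjusted p = 0.00433), and was higher on 3 of 3 days. Dpysl3 was higher by 1.74 (SE 0.24, adjusted p = 0.0140) and Foxp1 by 1.43 (SE 0.15, adjusted p = 0.00844), again on all 3 days. Anxa2 (1.08), Camk2d (0.98) and Gas7 (0.73) were the other 3 higher members, with adjusted p-values of 0.0216, 0.0154 and 0.0334. The membrane protein Cmtm3 was the one lower member, at -1.15 (SE 0.19, adjusted p = 0.0218). Kif1a at 1.36 (adjusted p = 0.0512) and Cpe at -1.38 (adjusted p = 0.0675) did not pass, and neither did Tm4sf1 at 1.02 or Anxa1 at 0.83, whose difference was larger on day 1 than on days 3 and 5.

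These calls rest on few days. Without day 1, the GFP library with the second largest GC departure, 14 members passed; without day 3 only 2 did, Cd109 and Foxp1; and without day 5 there were 4. Over all genes, the calls numbered 7481 without day 1, 621 without day 3 and 902 without day 5, against 2911 with every day. Cd109 and Foxp1 passed under every alternative tried. By order alone, 7 members had all 3 OSK libraries above all 3 GFP libraries (Anxa1, Anxa2, Camk2d, Cd109, Dpysl3, Foxp1 and Kif1a), as did 17.8% of all genes with at least 5 CPM. For Cmtm3 and Cpe all 3 were below, as for 15.4% of all genes.

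**Figure D3:**
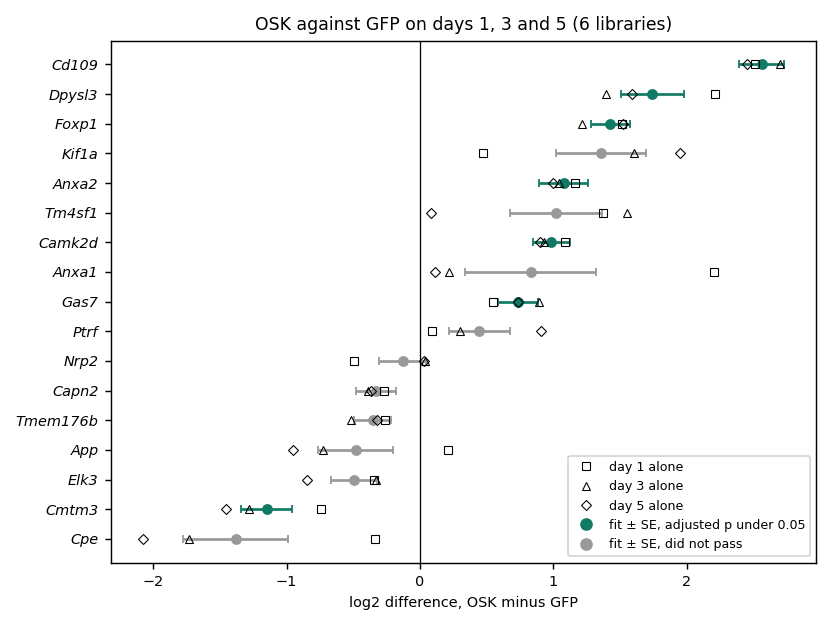
Log2 difference of OSK from GFP (x axis) for the 17 genes, with the fitted value over days 1, 3 and 5 and its SE as filled circles and each single day as an open symbol. The 7 green circles passed, from Cd109 at 2.56 to Cmtm3 at -1.15; the days of Anxa1, App, Cpe and Kif1a are widely spread.

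Changes per day were fitted as a line in each arm, in 1 model of 12 libraries and 13450 genes without the end-point libraries. In OSK over days 0 to 5, Gas7 (0.51 per day, SE 0.11), Nrp2 (0.40), Foxp1 (0.39) and Cd109 (0.34) rose, and Tm4sf1 (-0.51), Anxa2 (-0.32), Cmtm3 (-0.27), Ptrf (-0.25) and Capn2 (-0.20) fell, on the log2 scale. Their adjusted p-values in edgeR's test were 0.0106 for Gas7 and at most 0.0403 for the others. These are 4 and 5 of 17, where 20.1% of all genes rose and 21.8% fell. None of the 9 passed without OSK day 0, the library that stood apart and the only one of the arm in the other library set, where all 9 kept their sign but Nrp2 was at 0.175, Cd109 at 0.17, Foxp1 at 0.22 and Ptrf at -0.15 per day. Without OSK day 3 there were 5. Over all genes, the calls numbered 125 without OSK day 0 and 4199 without OSK day 3, against 5639 with every library. Among the 184 genes low at both end points, 4 rose and 114 fell. Members and these 184 genes were sorted by the last library of this same course, so their direction is not independent of that choice.

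In OvSvK over days 0 to 3, within 1 library set, Dpysl3 fell by 0.55 per day on the log2 scale (SE 0.12, edgeR adjusted p = 0.0317) and was the single member called, where 1.81% of all genes rose and 2.24% fell. That call was lost without OvSvK day 0, 2 or 3. The other large slopes were 0.77 for Nrp2, 0.52 for Gas7 and -0.60 for Tm4sf1, none of which passed. In the same model without OSK day 0, 5 members were called, Gas7 and Nrp2 higher and Capn2, Ptrf and Dpysl3 lower. That fit called 1544 genes in all, against 544 with OSK day 0. Of the 184 genes low at both end points, 68 fell and none rose at the adjusted threshold, with 148 of either sign at an unadjusted p under 0.05. OvSvK day 4 also sorted these genes and the members, so their direction is again not independent of that choice.

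In GFP over days 1 to 7, edgeR called 0 of 17 members, with 7 at an unadjusted p under 0.05 (3580 of 13450 genes in all) and 4 by DESeq2 (2283 genes in all), where 2.26% of all genes rose and 2.31% fell. The steepest members were Cpe (0.30 per day, adjusted p = 0.0510) and Anxa1 (0.26), upward, and Ptrf (-0.27, adjusted p = 0.0551) and Tm4sf1 (-0.24, but 0.11 without GFP day 1), downward. Without OSK day 0 in the model, Cpe, App, Cd109, Ptrf and Anxa2 passed, the first 3 upward. Over all genes 2428 then passed, against 615 with OSK day 0.

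In both time courses nearly all members were lower in the last library than in the one before it. OSK day 7 was below OSK day 5 in 16 of 17, all but Tmem176b, where 50.0% of all genes were lower. OvSvK day 4 was below OvSvK day 3 in 16 of 17, all but Gas7, where 53.6% of all genes were lower. Because those libraries also served the rule, these counts are a description. From day 5 to day 7 in OSK, Kif1a went from 524.9 to 229.2 CPM and Anxa1 from 775.4 to 330.5, and in OvSvK Anxa1 went from 613.7 to 247.3 and Tm4sf1 from 199.2 to 100.7 between days 3 and 4.

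The omission arms, had no part in the rule and lie in 1 library set. Day 7 was compared with day 3 with the arm as a block, over 6 libraries and 13959 genes. Anxa2 (-0.66, SE 0.18), Cpe (-0.61, SE 0.14) and Capn2 (-0.53, SE 0.15) fell, with edgeR adjusted p-values of 0.0258, 0.0119 and 0.0319, and no member rose, with 8 of the 17 at an unadjusted p under 0.05 (4245 of 13959 genes in all). In this fit 10.7% of all genes rose and 5.35% fell. Fitted differences were negative for 15 of the 17, among them Tmem176b at only -0.007 (0.004 with RLE factors), and the exceptions Nrp2 at 0.35 and Gas7 at 0.26 did not pass. Over all genes, 6955 of 13959 were positive. Of 180 tested genes low at both end points, 44 were positive, 56 were called lower and 3 higher. Their median was -0.37, against -0.28 for the members. By order, 14 members were lower on day 7 than day 3 without bFGF, 14 without vitamin C and 13 without GSK3 inhibitors, where 51.4%, 52.3% and 54.4% of all genes were.

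Cpe read 506.3 and 323.4 CPM on days 3 and 7 without bFGF, 399.2 and 231.7 without vitamin C, and 354.6 and 261.4 without GSK3 inhibitors. Anxa2 went from 2755 to 1588, from 2142 to 1049 and from 2464 to 2134, the smallest step being without GSK3 inhibitors. Capn2 went from 418.2 to 267.2, from 392.9 to 228.0 and from 440.0 to 380.4. All 3 were lower on day 7 in 3 of 3 arms. The 3 calls were lost when the arm without bFGF (493 genes called in all) or the arm without vitamin C (1428 genes) was left out. When the arm without GSK3 inhibitors was left out, 7 members passed and 2460 genes were called, against 2240 genes with every arm.

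The omissions were compared with each other over both days. Without GSK3 inhibitors, 5 members were higher than without vitamin C: Tm4sf1 by 1.05 (SE 0.31), Ptrf by 0.95 (SE 0.22), Gas7 by 0.66, Anxa2 by 0.64 and Camk2d by 0.58 on the log2 scale. Their edgeR adjusted p-values were 0.0435, 0.00748, 0.0122, 0.0482 and 0.0291, no member was lower, with 10 of the 17 at an unadjusted p under 0.05 (5250 of 13959 genes in all), and 10.2% of all genes were higher and 15.1% lower. Of 180 tested genes low at both end points, 85 were higher and 13 lower. Their median was 0.58, against 0.33 for the members. Ptrf read 1092 and 1067 CPM without GSK3 inhibitors on days 3 and 7, against 716.1 and 457.5 without vitamin C. Tm4sf1 read 278.5 and 257.6 against 222.1 and 78.75, so most of its difference lay on day 7. Without the day 7 library of the arm without vitamin C, 0 of the 5 passed, and without the day 7 library of the arm without GSK3 inhibitors 1 did, Gas7. Without the day 3 library of the former arm 2 members passed, and without that of the latter 8 did.

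Without bFGF, 3 members were higher than without vitamin C: Gas7 by 0.93 (SE 0.17), Tmem176b by 0.80 (SE 0.19) and Cmtm3 by 0.72 (SE 0.16), with edgeR adjusted p-values of 0.00310, 0.0122 and 0.0107. None was lower, with 6 of the 17 at an unadjusted p under 0.05 (4469 of 13959 genes in all), where 5.36% of all genes were higher and 11.0% lower. Of 180 tested genes low at both end points, 67 were higher and 6 lower, with a median of 0.55 against 0.33 for the members. Gas7 read 389.9 and 453.9 CPM against 192.8 and 254.1 on days 3 and 7. Tmem176b read 282.5 and 215.1 against 140.1 and 146.4, and Cmtm3 103.9 and 94.86 against 73.75 and 49.71. Leaving out the day 3 library without bFGF left only Gas7 called, and leaving out the day 3 library without vitamin C left only Cmtm3 of these 3. Without the day 7 library of the third arm, without GSK3 inhibitors, 5 members were called.

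Without bFGF against without GSK3 inhibitors, only Kif1a was called, higher by 0.62 (SE 0.17, edgeR adjusted p = 0.0330), where 5.39% of all genes were higher and 5.37% lower. It read 627.9 and 540.3 CPM without bFGF against 381.4 and 371.7 without GSK3 inhibitors, and 534.6 and 465.3 without vitamin C. That call was lost when any of the 6 libraries was left out. Of 180 tested genes low at both end points, 26 were higher and 17 lower.

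**Figure D4:**
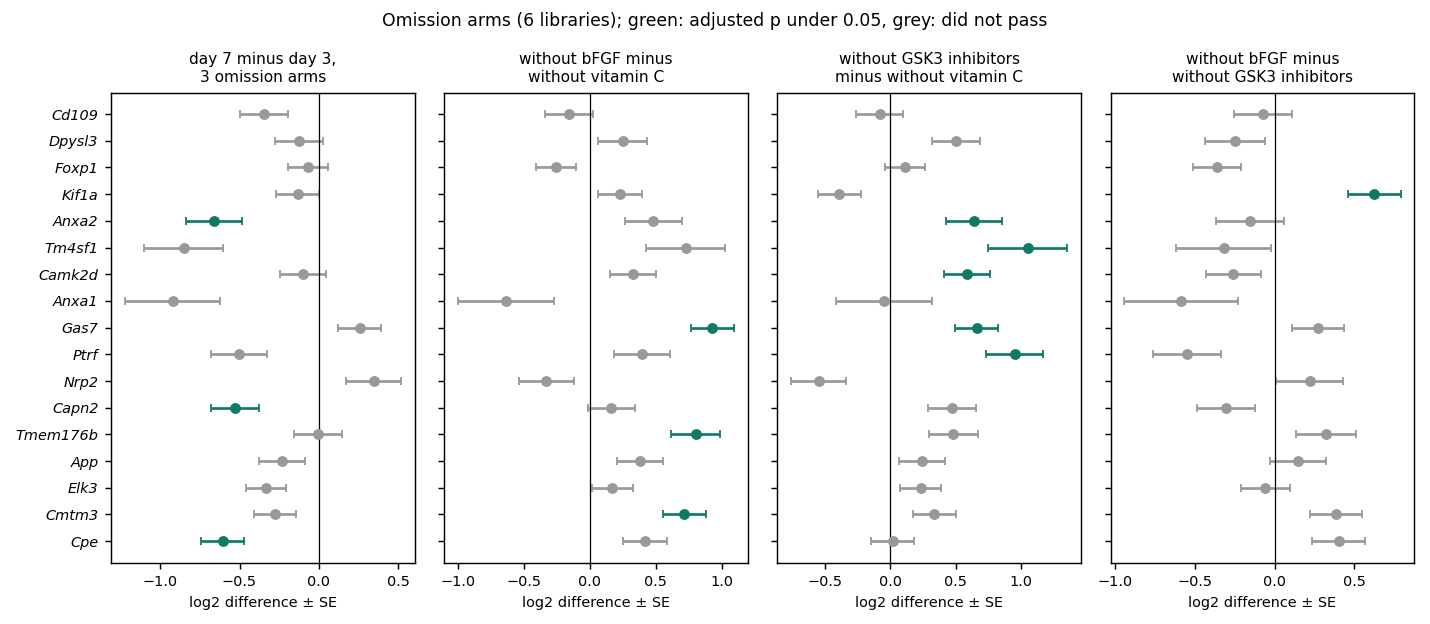
Fitted log2 differences with SE (x axes) for the 17 genes in 4 contrasts of the 6 omission libraries; green points passed and grey points did not. In the first panel 15 of 17 points lie below 0, and in the panel without GSK3 inhibitors minus without vitamin C the 5 green points lie between 0.58 and 1.05.

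The full OSK medium lies in the other library set from the omission arms, so the effect of an omission against OSK cannot be told apart from that set, and single days are given as values with no test. The largest ratios on day 3 were Tmem176b without bFGF, at 282.5 against 106.7 CPM in OSK, and Nrp2 without bFGF, at 106.8 against 220.1. Cmtm3 without bFGF was 103.9 against 54.84 on day 3 and 94.86 against 41.21 on day 7. Kif1a on day 7 was 540.3 without bFGF and 465.3 without vitamin C against 229.2 in OSK, and Tm4sf1 without GSK3 inhibitors was 257.6 against 96.79. Against GFP, all 6 omission libraries were above all 4 GFP libraries for Camk2d, Cd109, Dpysl3, Foxp1 and Kif1a, where 18.6% of all genes were, and below them for Capn2, Cmtm3 and Elk3, where 15.2% were. These also cross the library sets.

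OvSvK was set against OSK on the 3 shared days (0, 1 and 3), day being the block. By edgeR 0 of 17 members passed, with 4 at an unadjusted p under 0.05, and of all genes 0.00% were called higher and 0.00% lower, with 2991 of 12910 at an unadjusted p under 0.05. DESeq2 called 4 members and 1787 genes. The 4 members were Ptrf at -1.36 (SE 0.26, edgeR adjusted p = 0.0552), Anxa2 at -1.004 (SE 0.26, adjusted p = 0.0830), Tmem176b at -0.96 (SE 0.30, adjusted p = 0.118), all lower in OvSvK, and Nrp2 at 1.01 (SE 0.28, adjusted p = 0.0947), higher in OvSvK. Each of the 4 had the same sign on 3 of 3 days. The arms lie in different library sets on days 1 and 3 and in the same set on day 0, where Ptrf was 1148 against 2540 CPM, Anxa2 2535 against 6075, Tmem176b 76.06 against 161.2 and Nrp2 85.5 against 42.62. That day includes the library that stood apart. Without day 0, edgeR called Anxa2, Nrp2 and Ptrf, and without day 3 Ptrf alone. Over all genes these fits called 1263 and 1748.

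OvSvK and GFP share days 1 and 3 and were compared as single libraries across library sets. On day 1, 5 members were at least 2-fold higher in OvSvK and 2 at least 2-fold lower, where 25.8% and 17.1% of all genes were. On day 3 these were 4 and 3 members, where 22.5% and 17.8% of all genes were. Cd109 and Foxp1 were at least 2-fold higher and Ptrf and Tmem176b at least 2-fold lower on both days. Anxa1 was 2160 against 233.3 CPM on day 1 and 613.7 against 674.6 on day 3, and Cpe 542.1 against 410.7 and then 330.7 against 1126, so neither kept its order.

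Only 3 members belong to a list of related genes that had been drawn up: Anxa1 and Anxa2 to the S100 proteins and annexins, which bind calcium, and Ptrf to the genes of caveolae and related membrane proteins. Of 16 tested S100 and annexin genes, those called in OSK against GFP were Anxa2 and Anxa8, higher, and Anxa4, S100a13, S100a4 and S100a6, lower (all genes, 13.4% and 9.64%), with a median difference of -0.04 on the log2 scale. From day 3 to day 7 in the omission arms, 10 of 17 fell and none rose at the adjusted threshold (all genes, 5.35% and 10.7%), among them Anxa2, its partner gene S100a10, S100a4 and S100a6. Of 14 tested caveolar and membrane genes, those called in OSK against GFP were Prkcdbp, which encodes another cavin, higher, and Cd63, Ehd2 and Tspan4, lower (all genes, 13.4% and 9.64%). Without GSK3 inhibitors, Ahnak2, Ehd2, Emp1, Emp3 and Ptrf of these 14 were called higher than without vitamin C and none lower (all genes, 10.2% and 15.1%).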

How the data were processed

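RSEM made the gene estimates, per the submitters' processing notes: version 1.2.4 with the mm10 build for 20 libraries, and version 1.1.21 with mm9 for the mESC and MEF samples. The deposited tables give expected counts and TPM per gene, per the file headers. The deposited series table is named as CPM, but its 22 columns share 1 median (374) and 1 maximum (58542), so it was treated as a score from the authors and used only to choose the members. It is coarse among high values. Aligner and strand settings were not given in the sources used here, so reads of overlapping genes cannot be told apart from a member's.

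Expected counts were rounded. TMM factors, filterByExpr with the arm as group and robust quasi-likelihood tests came from edgeR 4.0.16 in R 4.3.3, with Benjamini-Hochberg adjustment over all genes tested at 0.05. Levels are given in every library for all members, not only the 12 most abundant and up to 6 per direction and test that the naming rule asked for. Single-day ratios were taken directly from CPM, without a prior count. Alternatives were DESeq2 1.42.0, RLE factors, no filter, limma 3.58.1 on log2(TPM + 1), and leaving out libraries. Members and lists were chosen with earlier results of these data known. P-values measure day-to-day or arm-to-arm variation, not spread between replicates.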

Additional observations from a re-analysis of the deposited data

How the results depend on the processing

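None of the 29 called differences of members changed sign under any alternative, but 32 of the 124 that were not called did so under at least 1, without being called there. Anxa1 for bFGF against vitamin C omission went from -0.64 to 0.14 without the day 3 library lacking vitamin C, Tm4sf1 for bFGF against GSK3 inhibitor omission from -0.32 to 0.30 without the day 7 library lacking GSK3 inhibitors, and the OSK slope of Anxa1 from 0.10 to -0.12 without OSK day 0. Counts are of members unless genes are named. By DESeq2, 2283 genes and 4 members were called in the GFP slopes, 1541 genes and 6 members in the OvSvK slopes, 5 members in day 7 against day 3, and 1787 genes and 4 members in OvSvK against OSK. By limma on log2(TPM + 1), the counts were 2 members for GFP slopes, 5 for OSK slopes, 872 genes and 0 members for OvSvK slopes, 1016 genes and 1 member for day 7 against day 3, 1504 genes for bFGF against vitamin C omission, and 690 genes and 0 members for bFGF against GSK3 inhibitor omission. Without the filter, 9 members were called for GSK3 inhibitor against vitamin C omission, and 1011 genes and 2 members for OvSvK against OSK. The slope model without OSK day 0, added after seeing the data, called 2428 genes and 5 members in GFP and 1544 genes and 5 members in OvSvK.

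Leaving out 1 day, library or arm (for the pairwise omission contrasts, chosen after seeing the data) gave 621 to 7481 genes and 2 to 14 members for OSK against GFP, 0 to 1113 genes and 0 to 2 members for GFP slopes, 125 to 6841 genes and 0 to 8 members for OSK slopes, 0 to 382 genes and 0 to 1 member for OvSvK slopes, 493 to 2460 genes and 0 to 7 members for day 7 against day 3, 538 to 2644 genes and 1 to 5 members for bFGF against vitamin C omission, 273 to 1818 genes and 0 to 2 members for bFGF against GSK3 inhibitor omission, 1301 to 3827 genes and 0 to 8 members for GSK3 inhibitor against vitamin C omission, and 17 to 1748 genes and 0 to 3 members for OvSvK against OSK. The cause was not tested, except that fewer libraries enter each. Fits with 1 library per arm and day have 2 to 6 residual degrees of freedom, and a lone library is assumed to vary like the others. Day or arm served as the block, and the labels give no replicate numbers that could serve as one.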

Other observations

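Genes of the fibroblast programme outside the 17 members were tested in the same comparison of OSK with GFP on days 1, 3 and 5. Of 33 tested genes of fibroblast and mesenchymal identity, 14 were called lower in OSK, among them the receptor genes Pdgfra and Pdgfrb, the surface marker gene Thy1 and the transcription factor gene Twist2, and 4 were higher (Fstl1, Meox2, Nt5e and Tbx18), with a median of -1.57 on the log2 scale against 0.033 for all genes. Of 27 actin and contractile genes, 8 were lower (9.64% of all genes were), including Acta2 and Tagln, which encode smooth muscle actin and transgelin. Against vitamin C omission, omission of GSK3 inhibitors had 10 of 26 actin genes and 8 of 19 YAP/TEAD target genes higher, where 10.2% of all genes were higher and 15.1% lower. That contrast called 3537 genes, but 2297 or 2198 without the day 3 or day 7 library lacking vitamin C and 1301 without the day 7 library lacking GSK3 inhibitors. The lists were chosen with results of these data known, and these counts carry no list test.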
